A study of Sus scrofa with 4 samples.

Results

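The genes described are SLC2A1, HK1, GPI, PFKP, GAPDH, PKM, LDHA and LDHB of glycolysis and PGD of the pentose phosphate pathway, 9 of the 16050 genes with values in porcine oocytes. They were chosen by gene symbol from the deposited expression table. The choice did not use their values, but earlier results of these data were known. RNA was sequenced from Sus scrofa oocytes at metaphase II, matured in vitro either without added Cu (Control replicates 1 and 2) or with Cu in the maturation medium (Cu replicates 1 and 3). The Cu came from copper sulfate at 25 μg/mL and the culture lasted 44 h, conditions described for the experiments as a whole and not for these libraries by name. In both groups the ovaries came from a slaughterhouse, and the cumulus-oocyte complexes matured in TCM-199 with follicular fluid, EGF, insulin, pyruvate, cysteine, hCG and eCG. The age and breed of the animals are not given in the sources used here. Each library pooled 3 oocytes, so the values of single oocytes were not seen, and nothing says whether the libraries of a group came from separate animals or cultures. The p-values therefore measure only the spread between these libraries. The methods describe 3 sets per group, of which 2 per group had values of their own.

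Glycolysis splits glucose into pyruvate in the cytosol and yields ATP and NADH, and lactate dehydrogenase then interconverts pyruvate and lactate. The pentose phosphate pathway branches off at glucose 6-phosphate and gives NADPH, which keeps glutathione reduced, and ribose 5-phosphate for nucleotides. The mammalian oocyte is known to use little glucose itself and to take up pyruvate that the surrounding cumulus cells make by glycolysis. A metaphase II oocyte is also transcriptionally silent, so its mRNA level reflects stored transcripts. The transcripts were primed with oligo dT, so the values describe polyadenylated mRNA.

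Expression was given as FPKM, fragments scaled to transcript length and library total, which allows levels of different genes to be set side by side. FPKM does not keep read numbers, so the depth is unknown, and a value of 0 means only that the gene is listed at 0. The libraries had 7923 to 9364 genes at 1 FPKM or more. Cu 1 stood apart with the 9364 genes, against 7923 to 8162 in the other libraries, so results are also given without it. All 13 oocyte markers with values, of 14 listed, were found, with a summed level of 9263 to 12408 FPKM. Of 20 cumulus and granulosa cell markers 14 had values, with summed levels of 4.16 (Control 1) and 6.88 FPKM (Control 2) against 22.0 (Cu 1) and 15.6 FPKM (Cu 3). SERPINE2 accounted for most of the latter, with 14.2 and 12.7 FPKM in Cu 1 and 3. GREM1 was also higher in both Cu libraries, with 0.90 (Control 1) and 1.78 FPKM (Control 2) against 5.05 (Cu 1) and 1.86 FPKM (Cu 3). VCAN had 0.92 (Control 1) and 1.43 FPKM (Control 2) against 1.32 (Cu 1) and 0.49 FPKM (Cu 3). AMH and NR5A2 were listed at 0 in every library and PTX3 in 3 of them. Of 8 blood cell markers 2 had values, with summed levels of 0.52 to 1.28 FPKM. The part of these cells in the results below was not tested, and fewer cells of a type and less RNA per cell cannot be told apart.

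None of the tested genes of the set showed a difference between the groups that exceeded the spread between libraries. Of the 9 genes, 8 reached 1 FPKM in at least 2 libraries and were tested among 8541 genes, and HK1 did not. In limma's moderated test on log2(FPKM + 1), 0 of the 8 reached an adjusted p of 0.05, as was so for 0.0% of all tested genes. Before adjustment 0 of the 8 reached a p of 0.05, while 599 of all tested genes (7.01%) did. A log2 fold change of 1.5 in addition was reached upward by 0 of the 8 (1.76% of all tested genes) and downward by 0 of the 8 (0.117%). The groups overlapped in all 8 genes, while 38.8% of all tested genes had Cu libraries that lay together above or together below the Control libraries. After median-of-ratios scaling, which makes the typical gene equal between libraries, the groups still overlapped in 8 of 8, where 39.0% of all tested genes were separated. The fold change was upward in 5 of the 8, as in 64.3% of all tested genes, but GAPDH and LDHB turned downward with that scaling. Its median on the log2 scale was 0.11 over the 8 genes and 0.16 over all 8541 tested genes, and both fell by about the same amount with that scaling, to -0.06 and 0.01. Without Cu 1 the median of the 8 genes was -0.36 and without Cu 3 it was 0.65. The 95% interval of the difference included 0 for each of the 8 genes, and its width differed between them. For GAPDH it reached from -1.58 to 1.87, so differences of several fold in either direction were not excluded for that gene. For LDHB it reached from -0.64 to 0.80.

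**Figure D1:**
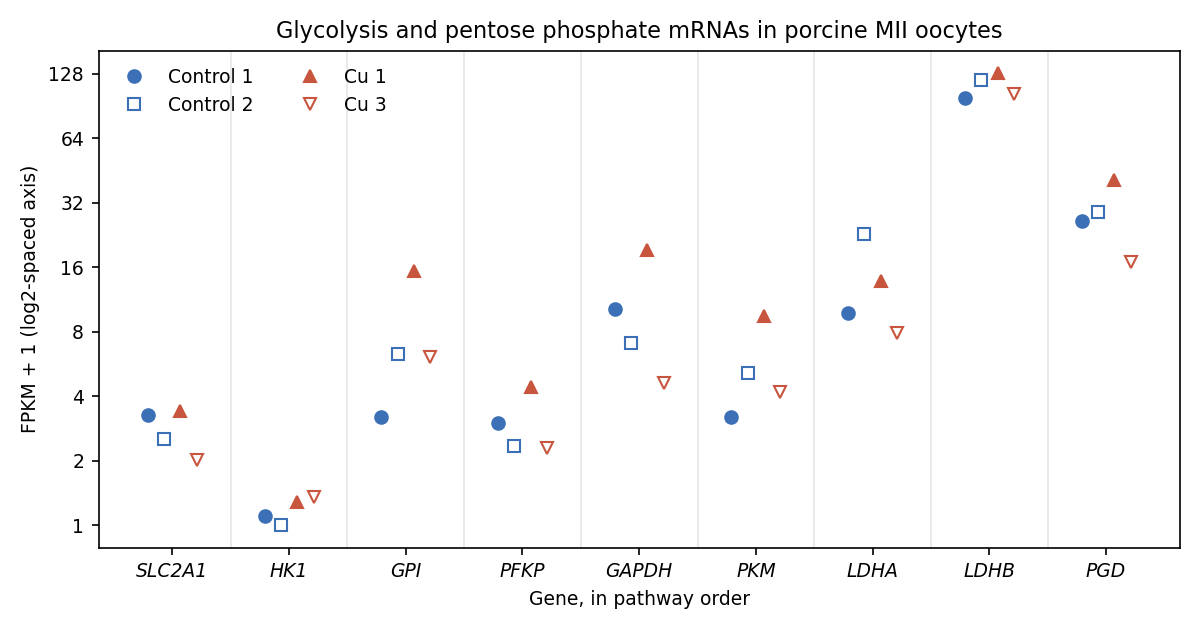
FPKM + 1 of the 9 genes on a log2-spaced axis, in pathway order, with 1 point for each library (Control 1 and 2 in blue, Cu 1 and 3 in red). LDHB lies near 100 FPKM in every library, HK1 stays under 0.4 FPKM, and for SLC2A1, PFKP, GAPDH and PGD the Control points sit between the Cu points.

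The order of the levels was steep and much alike in the 4 libraries. LDHB was the most abundant of the 9 in every library and PGD the next, and HK1 was the lowest in every library. LDHB alone made up 65.2% and 63.5% of the summed FPKM of the 9 genes in Control 1 and 2 and 56.1% and 73.1% in Cu 1 and 3. Among the genes in between, the places of GAPDH, LDHA, GPI, PKM, PFKP and SLC2A1 changed from library to library. GAPDH was above LDHA in Control 1 and Cu 1 and below it in Control 2 and Cu 3. SLC2A1 and PFKP lay at 1.02 to 3.40 FPKM, with SLC2A1 above PFKP in both Control libraries and below it in both Cu libraries. Their ranges overlapped, and this order was not tested.

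Glucose enters the cell through facilitative transporters of the SLC2A family. SLC2A1 (GLUT1, the widespread basal transporter, identifier 102164419, Sscrofa11.1 chromosome 6, 168535398 to 168561170) had 2.27 (Control 1) and 1.54 FPKM (Control 2) against 2.43 (Cu 1) and 1.02 FPKM (Cu 3). Cu 1 was thus the highest and Cu 3 the lowest library, with both Control libraries between them. On the log2 scale the groups differed by -0.13 (standard error 0.41, limma's adjusted p = 0.951). SLC2A1 was not the leading transporter at the transcript level. SLC2A8, a largely intracellular transporter, had 8.37 (Control 1) and 7.87 FPKM (Control 2) against 27.8 (Cu 1) and 6.77 FPKM (Cu 3). SLC2A13, a proton-coupled myo-inositol transporter of the same family, had 2.56 to 3.42 FPKM over the 4 libraries. SLC2A5, the fructose transporter, had 0.40 to 1.76 FPKM and was above SLC2A1 in Cu 3. Shares were taken over 6 of the 9 SLC2A genes with values, without SLC2A5, SLC2A6 and SLC2A11. Of their summed FPKM, SLC2A1 held 15.9% and 12.3% in Control 1 and 2 and 7.23% and 9.21% in Cu 1 and 3. Its share was lower in both Cu libraries, 8.22% ± 1.40 (SD, n = 2) against 14.1% ± 2.52 (SD, n = 2), with an exact permutation p of 0.333. Over all 9 genes, an alternative chosen after the data had been seen, the share was 15.5% (Control 1), 11.6% (Control 2), 7.03% (Cu 1) and 7.89% (Cu 3). The p of 0.333 is the smallest two-sided p that 2 libraries against 2 allow, so none of the exact tests here could reach 0.05. Any share that lies higher or lower in both Cu libraries gives this p, and without a group difference such a separation arises at that rate.

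Hexokinases trap glucose as glucose 6-phosphate, the substrate of both pathways. HK1 (the widespread hexokinase that binds the outer mitochondrial membrane, identifier 100152344, chromosome 14, 72383328 to 72460927) had 0.11 FPKM in Control 1, was listed at 0 in Control 2 and had 0.29 and 0.35 FPKM in Cu 1 and 3. The Cu values were both above the Control values, but at levels where FPKM cannot show how many reads stood behind them. Without the filter on low values its log2 fold change was 0.32 (standard error 0.09, adjusted p = 0.818 over 15559 genes in limma's test). HK1, HK2 and HKDC1 together summed to 0.19 to 0.70 FPKM, and HK3 had no value. ADPGK, named after its values had been seen, phosphorylates glucose with ADP at the endoplasmic reticulum and had 98.3 (Control 1) and 119 FPKM (Control 2) against 139 (Cu 1) and 80.6 FPKM (Cu 3). Its transcript was thus far more abundant than HK1, HK2 and HKDC1 together in every library, and its log2 fold change between the groups was -0.03 (standard error 0.36).

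GPI (glucose-6-phosphate isomerase, which makes fructose 6-phosphate, identifier 397602, chromosome 6, 44038374 to 44069331) had the largest log2 fold change of the 8 tested genes. It had 2.2 (Control 1) and 5.3 FPKM (Control 2) against 14.4 (Cu 1) and 5.11 FPKM (Cu 3). Only Cu 1 was above the Control libraries, and Cu 3 lay just under Control 2. The log2 fold change was 1.11 (standard error 0.59, 95% interval -0.34 to 2.56, limma's adjusted p = 0.728), and it was 0.44 without Cu 1 and 1.78 without Cu 3. The difference was thus smaller without Cu 1 but stayed upward. It was also smaller without Control 1, at 0.62, and larger without Control 2, at 1.6. Each of these fits left a single library in 1 group, whose spread cannot be seen, so only effect sizes are given.

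Phosphofructokinase commits the sugar to glycolysis and is the classical control point of the pathway. PFKP (the platelet-type subunit, identifier 100521394, chromosome 10, 67022652 to 67082336) had 2.0 (Control 1) and 1.35 FPKM (Control 2) against 3.40 (Cu 1) and 1.30 FPKM (Cu 3). The Control libraries again lay between the Cu libraries, although Cu 3 differed from Control 2 by only 0.05 FPKM. Between the groups the log2 fold change was 0.26 (standard error 0.44, limma's adjusted p = 0.909), and -0.01 after quantile normalization. PFKP was the main subunit, with 76.0% and 66.8% of the summed FPKM of PFKP, PFKL and PFKM in Control 1 and 2 and 62.6% and 60.7% in Cu 1 and 3. Its share was lower in both Cu libraries (exact permutation p = 0.333), at summed levels of 2.02 to 5.43 FPKM. The share of PFKM was higher in both Cu libraries, at 26.0% (Cu 1) and 30.4% (Cu 3) against 21.3% (Control 1) and 22.3% (Control 2). PFKM reached 1.41 FPKM in Cu 1 and PFKL stayed at 0.62 FPKM or less.

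GAPDH (glyceraldehyde-3-phosphate dehydrogenase, the step that makes NADH, identifier 396823, chromosome 5, 64129678 to 64135194) was also the reference gene of the study's quantitative PCR. Its transcript was at a moderate level, with 9.18 (Control 1) and 6.08 FPKM (Control 2) against 18.2 (Cu 1) and 3.60 FPKM (Cu 3). The group means, 10.9 ± 10.3 FPKM (SD, n = 2) in Cu and 7.63 ± 2.19 FPKM (SD, n = 2) in Control, hid a 5.06-fold difference between the Cu libraries. After scaling by the median of ratios, which divided Cu 1 by 1.21 and Cu 3 by 0.938, Cu 1 was still 3.94-fold above Cu 3. On log2(FPKM + 1) the range of GAPDH over the 4 libraries was 2.06, at percentile 93.3 of all tested genes, and that of LDHB was 0.38, at percentile 9.8. The log2 fold change of GAPDH was 0.15 (standard error 0.70, limma's adjusted p = 0.968), with -0.88 without Cu 1 and 1.18 without Cu 3. Its direction thus depended on the Cu library that was kept, and median-of-ratios scaling moved it to -0.02. Mammalian genomes hold many processed copies of GAPDH, to which some of its reads could have been assigned. The testis-specific GAPDHS had 0 to 0.55 FPKM.

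PKM (pyruvate kinase, which makes pyruvate and ATP, identifier 100158154, chromosome 7, 60971807 to 61032780) had 2.21 (Control 1) and 4.11 FPKM (Control 2) against 8.44 (Cu 1) and 3.18 FPKM (Cu 3). As for GPI, Cu 1 was the highest library and Cu 3 lay between the Control libraries. The fold change on the log2 scale was 0.63 (standard error 0.52, limma's adjusted p = 0.801), with 0.05 without Cu 1 and 1.22 without Cu 3. PKM held 96.5% and 91.5% of the summed FPKM of the pyruvate kinases in Control 1 and 2 and 97.8% and 99.4% in Cu 1 and 3. Its share was thus higher in both Cu libraries (exact permutation p = 0.333). PKLR, the liver and red cell gene, had 0.02 to 0.38 FPKM. The table does not separate the M1 and M2 splice forms of PKM.

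**Figure D2:**
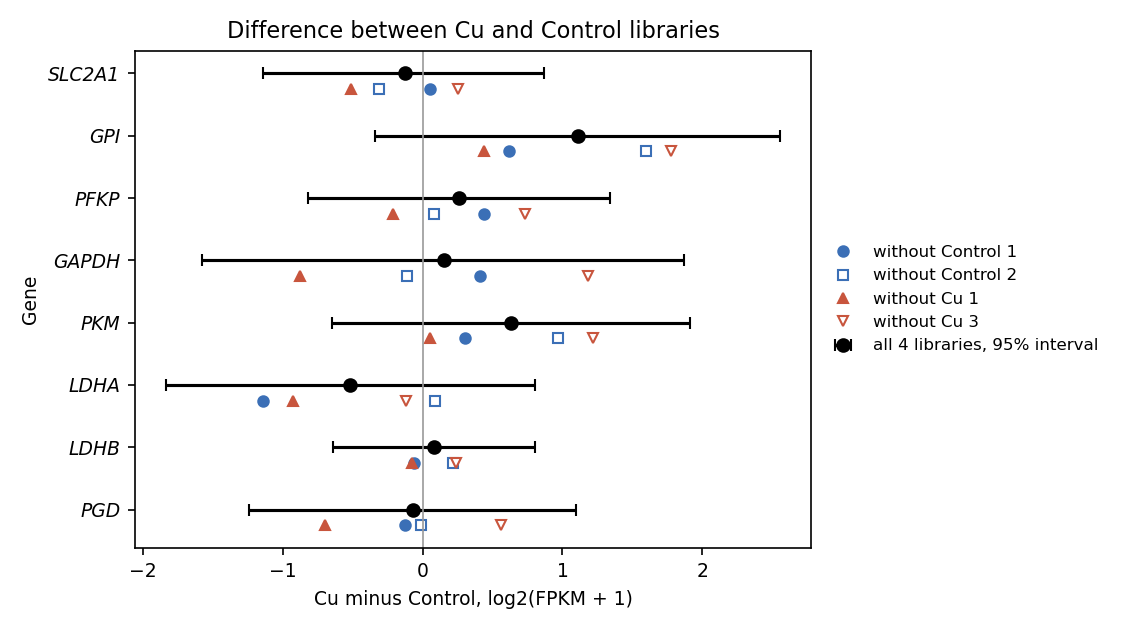
Difference of mean log2(FPKM + 1), Cu minus Control, for the 8 tested genes, with limma's 95% interval (black) and the value after leaving out each library in turn (coloured points below). Every interval includes 0, and for SLC2A1, PFKP, GAPDH, LDHB and PGD the values without Cu 1 and without Cu 3 lie on opposite sides of 0.

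Lactate dehydrogenase is a tetramer of A and B subunits in most tissues, with the A form favoured in glycolytic tissue and the B form in oxidative tissue such as heart, and a C form known from the germ line. LDHB (identifier 102161427, chromosome 5, 51810932 to 51831218) had 98.1 (Control 1) and 119 FPKM (Control 2) against 128 (Cu 1) and 102 FPKM (Cu 3). It was the steadiest of the 9 genes, with a highest to lowest ratio of 1.30, and it lay at percentile 95 or above among all genes with values in each library. The log2 fold change was 0.08 (standard error 0.30, 95% interval -0.64 to 0.80, limma's adjusted p = 0.959), and -0.10 after median-of-ratios scaling. A second row with the symbol LDHB (identifier 100621540, chromosome 2, 12988754 to 12990033) spans 1280 bases, against 20287 for the first. It had 0.05 FPKM in Control 2 and was listed at 0 in the other libraries. Reads could have been divided between these copies.

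LDHA (identifier 407245, chromosome 2, 40814163 to 40827284) had 8.82 (Control 1) and 21.9 FPKM (Control 2) against 12.8 (Cu 1) and 6.88 FPKM (Cu 3). It was the only tested gene of the 9 in which Control 2 and not Cu 1 was the highest library. The log2 fold change was -0.52 (standard error 0.54, limma's adjusted p = 0.834), and it was 0.09 without Control 2, so among the 4 libraries the lower Cu mean rested on that library. The authors' means, over 3 libraries a group, were 24.0 FPKM in Control and 11.7 FPKM in Cu. LDHB exceeded LDHA in every library, by 11.12 (Control 1), 5.41 (Control 2), 9.97 (Cu 1) and 14.8 times (Cu 3). The ratio overlapped between the groups (exact permutation p = 0.667).

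LDHC, the germ line subunit, lies next to LDHA on chromosome 2, with 4048 bases between them. It had 18.8 (Control 1) and 61.9 FPKM (Control 2) against 51.2 (Cu 1) and 119 FPKM (Cu 3). LDHC was above LDHA in all 4 libraries, and in Cu 3 it was above LDHB as well. Its log2 fold change was 1.17 (standard error 0.66, limma's adjusted p = 0.738), with overlapping groups. The highest library was thus Control 2 for LDHA and Cu 3 for LDHC. Of the summed FPKM of the 3 subunits LDHA held 7.02% and 10.8% in Control 1 and 2 and 6.68% and 3.02% in Cu 1 and 3. Its share was lower in both Cu libraries, 4.85% ± 2.59 (SD, n = 2) against 8.93% ± 2.70 (SD, n = 2), though Cu 1 lay only just under Control 1 (exact permutation p = 0.333). The share of LDHB, 44.6% to 78.0%, overlapped between the groups. The 3 subunits have similar coding sequences, and how reads matching more than one were assigned could have affected these shares.

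**Figure D3:**
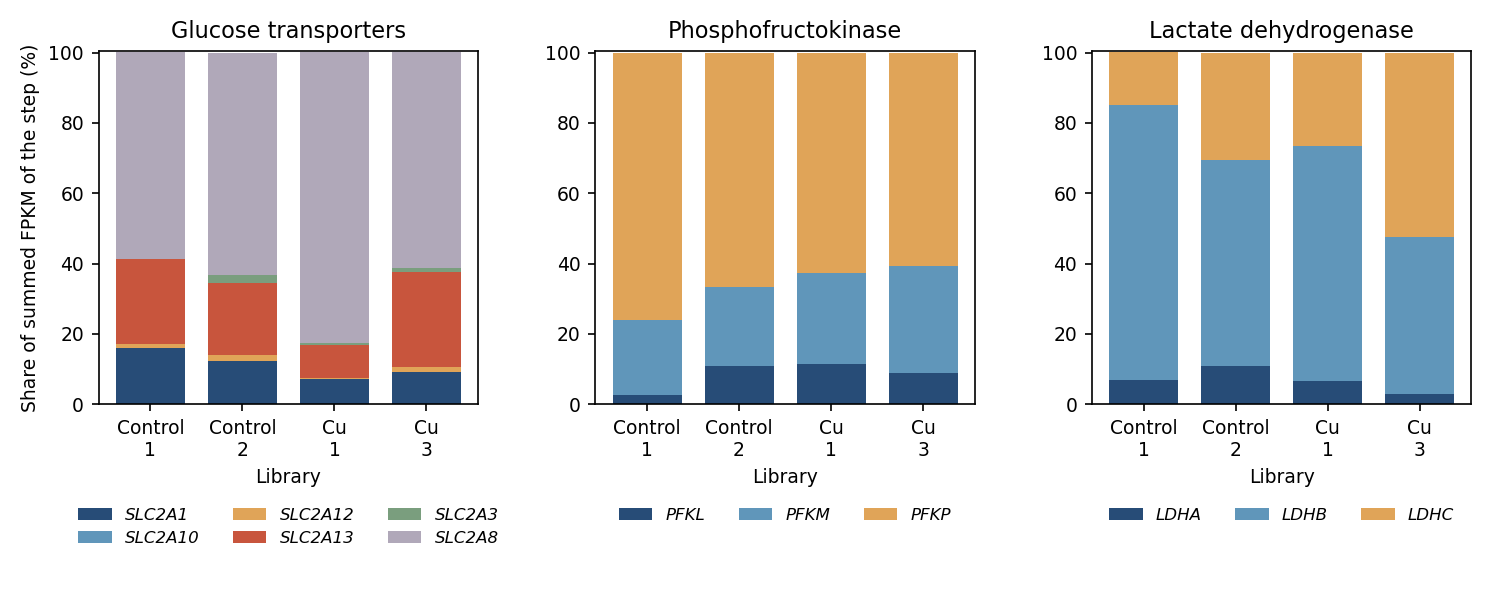
Share of the summed FPKM of each step, in percent, held by each gene, with 1 bar for each library, for 6 SLC2A transporters, 3 phosphofructokinase subunits and 3 lactate dehydrogenase subunits. SLC2A8, PFKP and LDHB hold the largest shares except in Cu 3, where LDHC has 52.3% of the lactate dehydrogenase transcripts and LDHB 44.6%.

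In the pentose phosphate pathway, PGD makes ribulose 5-phosphate and the second NADPH of the pathway. PGD (6-phosphogluconate dehydrogenase, identifier 397546, chromosome 6, 70675751 to 70692697) had 25.4 (Control 1) and 27.9 FPKM (Control 2) against 39.8 (Cu 1) and 16.0 FPKM (Cu 3). The Control libraries were close together, and the Cu libraries lay on either side of them at a distance of 2.49 times from each other. Its log2 fold change was -0.07 (standard error 0.48, limma's adjusted p = 0.979), with -0.70 without Cu 1 and 0.56 without Cu 3. PGLS, the lactonase that makes the substrate of PGD, had 0.42 FPKM or less and was listed at 0 in Control 1 and Cu 3, while PGD lay at percentile 81.5 to 88.1 of all genes with values in the same libraries.

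The other genes of the pathways, grouped in lists by step and function, also had 0 genes that reached an adjusted p of 0.05 with limma. Of 23 other glycolysis enzymes 8 were tested, with a median log2 fold change of 0.21 (-0.03 after quantile normalization), 5 higher and 3 lower in Cu. Separated groups were seen in 0 of these 8, and in 38.8% of all tested genes. Of 13 other pentose phosphate enzymes 6 were tested, with a median of 0.34, 4 higher and 2 lower. Without Cu 1 these medians were -0.27 and -0.11, and without Cu 3 they were 0.84 and 0.62. RPE, the epimerase of ribulose 5-phosphate, was the only one of these with separated groups, at 3.27 (Control 1) and 2.56 FPKM (Control 2) against 5.38 (Cu 1) and 4.61 FPKM (Cu 3) (limma's adjusted p = 0.748). RPIA, which makes ribose 5-phosphate and was named after its values had been seen, was the most abundant transcript of either pathway, with 482 (Control 1) and 389 FPKM (Control 2) against 626 (Cu 1) and 261 FPKM (Cu 3). It exceeded PGD by 14.0 to 18.9 times in the 4 libraries, and like PGD it was highest in Cu 1 and lowest in Cu 3. TKT, the transketolase that links the pathway back to glycolysis, also named after its values had been seen, had 2.50 (Control 1) and 1.64 FPKM (Control 2) against 16.8 (Cu 1) and 2.17 FPKM (Cu 3).

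Summed by step, the highest and lowest steps of glycolysis were the same in the 4 libraries, while the order in between changed. The steps were grouped after the values had been seen. Lactate dehydrogenase summed to 126 to 228 FPKM and ADPGK to 80.6 to 139 FPKM. Phosphofructokinase summed to 2.02 to 5.43 FPKM and the phosphoglycerate mutases PGAM1 and PGAM2 to 0.06 to 0.35 FPKM. BPGM, the bisphosphoglycerate mutase, was not counted in that step. It had 3.02 (Control 1) and 9.04 FPKM (Control 2) against 19.5 (Cu 1) and 6.36 FPKM (Cu 3). Steps between GPI and PKM varied to different degrees. TPI1, the triosephosphate isomerase, ranged from 0.45 to 7.76 FPKM and the enolases from 0.58 to 5.25 FPKM, both with Cu 1 highest and Cu 3 lowest. TPI1 was thus above phosphofructokinase (5.43 FPKM) in Cu 1 and below the hexokinases (0.70 FPKM) in Cu 3. The aldolases summed to 7.78 to 22.0 FPKM with the same order of the Cu libraries. PGK1, the first ATP-yielding enzyme, was steady at 13.0 to 17.4 FPKM. Genes such as PGAM1, ENO1 and TPI1 are known to have processed copies in mammals, so how reads matching several places were assigned could have affected their values.

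**Figure D4:**
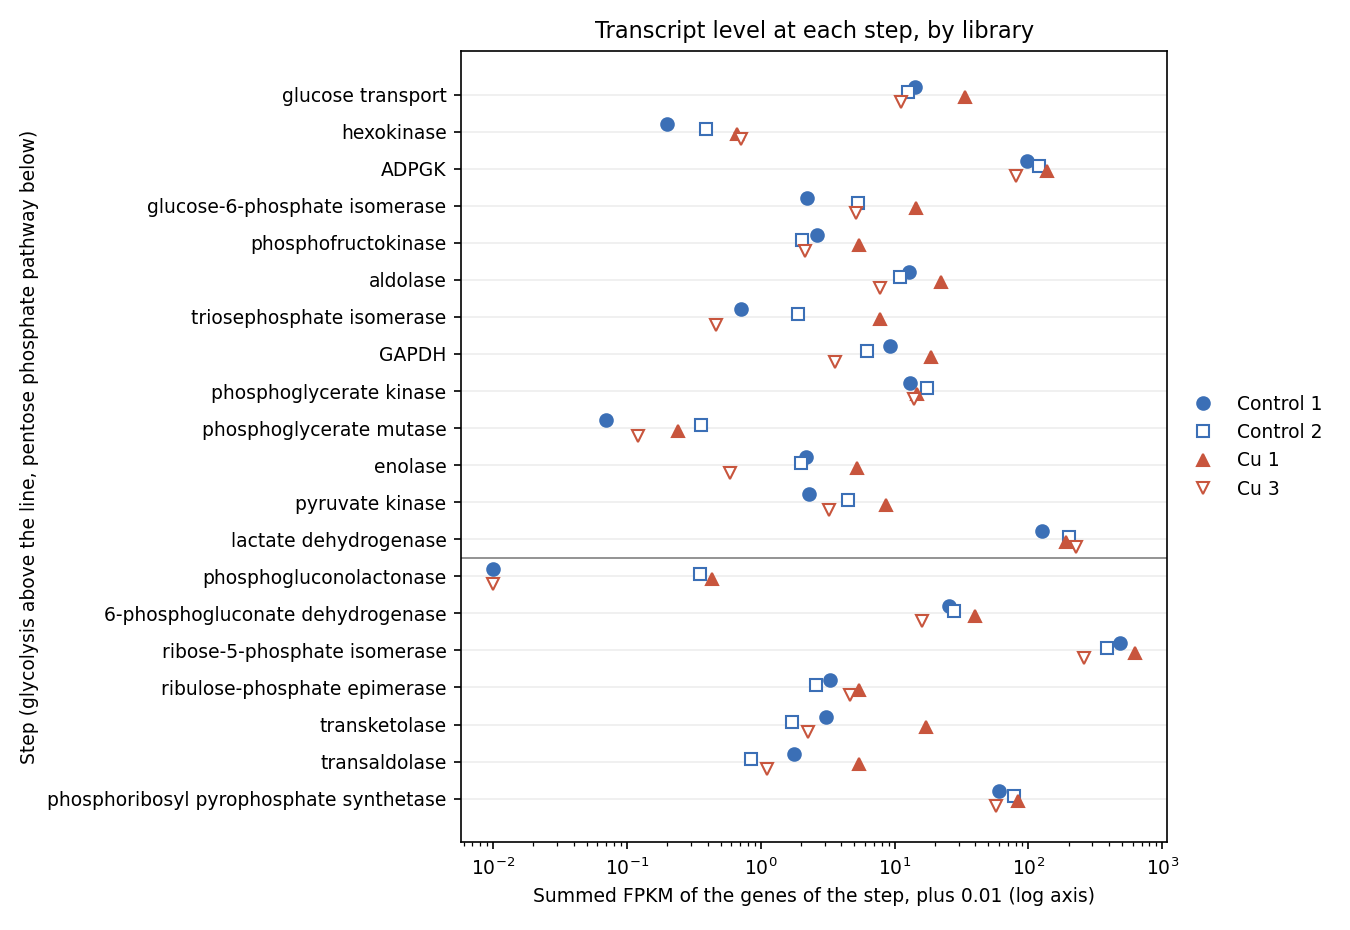
Summed FPKM plus 0.01 of the genes of each step, on a log axis, with 1 point for each library, for glycolysis above the line and the pentose phosphate pathway below it. Lactate dehydrogenase, ADPGK and ribose-5-phosphate isomerase lie above 80 FPKM in every library, while hexokinase stays under 1 FPKM.

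Before scaling, the Cu libraries differed from each other in 1 direction over the 8 tested genes of the set. Cu 1 was above Cu 3 in 8 of the 8 tested genes, compared with 65.7% of all tested genes, and it was the highest of the 4 libraries in 7 of the 8, compared with 51.0%. In 4 of the 8, namely SLC2A1, PFKP, GAPDH and PGD, Cu 1 was above and Cu 3 below both Control libraries, compared with 18.5% of all tested genes. This count was chosen after the values had been seen. After median-of-ratios scaling Cu 1 was above Cu 3 in 7 of the 8 (49.8% of all tested genes), while LDHB in Cu 1 was 0.976 times its level in Cu 3. With that scaling Cu 1 was above and Cu 3 below both Control libraries in 3 of the 8 (12.4%), of which PFKP by less than the last printed digit. The reverse, Cu 3 above and Cu 1 below, was seen in 0 of the 8 (7.31%). In 8 of 8 genes the gap from Cu 1 to Cu 3 on log2(FPKM + 1) exceeded the difference between the group means (66.2% of all tested genes), and the gap between the Control libraries exceeded it in 7 of 8, GPI being the exception (42.7%). A gap between single libraries is larger on average than a difference of means even where nothing changes. The cause of the difference between the Cu libraries was not tested.

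**Figure D5:**
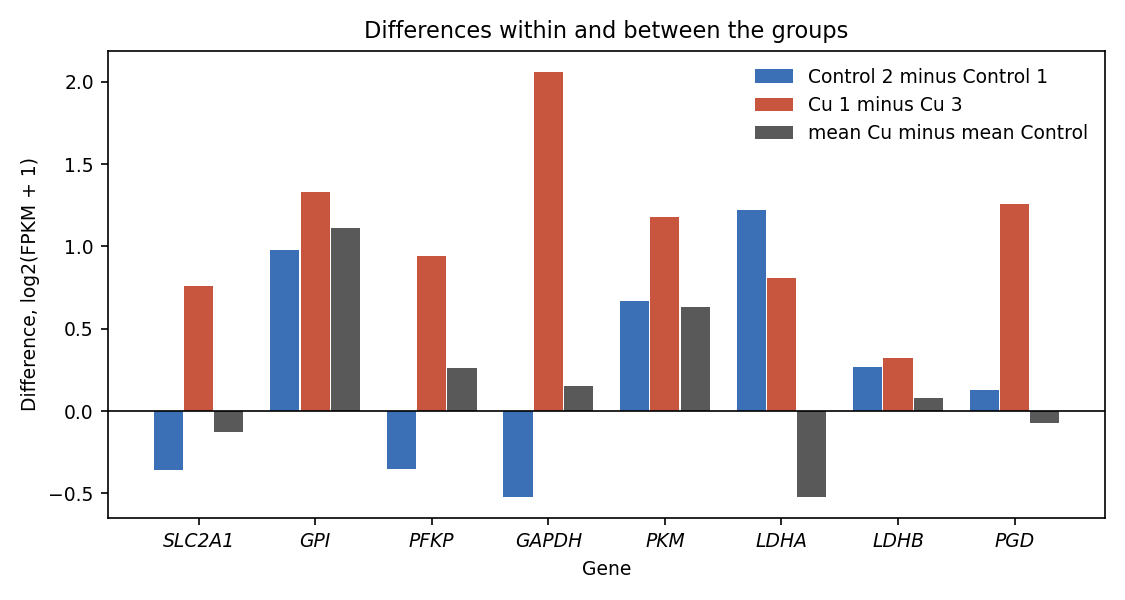
Differences on log2(FPKM + 1) for the 8 tested genes, between the Control libraries (blue), between the Cu libraries (red) and between the group means (grey). The red bar exceeds the grey one in size in every gene, with 2.06 against 0.15 for GAPDH.

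Around the pathways, transcripts that handle pyruvate, glycogen and NADPH were examined with the same test. For 14 tested genes of lactate and pyruvate handling the median log2 fold change was -0.06, with 3 genes separated upward and 3 downward, where 25.4% and 13.4% of all tested genes were. PDHA1, the catalytic subunit of pyruvate dehydrogenase, had 11.8 (Control 1) and 13.8 FPKM (Control 2) against 27.0 (Cu 1) and 16.3 FPKM (Cu 3). PDP2, a phosphatase that activates the same enzyme, was also separated upward, with a log2 fold change of 0.58. The kinases PDK1 and PDK3, which inhibit it, lay lower in both Cu libraries, each with a log2 fold change of -0.61. PDP1, a further phosphatase, was the third gene separated upward, at 0.50, and PDHB, the partner subunit of PDHA1, the third separated downward, at -0.58. For these 6 genes limma's adjusted p was at least 0.738. Without Cu 3 the median of the list was 0.36. The pyruvate carrier subunits MPC1 and MPC2, named after their values had been seen, had 38.4 to 112 FPKM and 53.8 to 74.0 FPKM, well above PKM in each library.

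Genes of gluconeogenesis and glycogen had the lowest median of the lists, -0.38 over 7 tested genes. In this list 4 were separated downward and 0 upward, where 13.4% and 25.4% of all tested genes were. The median was 0.07 without the filter on low values and 0.08 with 1 FPKM required in every library, so its direction depended on the genes included. UGP2, which makes UDP-glucose for glycogen, had 245 (Control 1) and 265 FPKM (Control 2) against 141 (Cu 1) and 175 FPKM (Cu 3), with both Cu values lower. Its fold change on the log2 scale was -0.69 (standard error 0.27), with limma's p at 0.044 unadjusted and an adjusted p of 0.682. GBE1, the glycogen branching enzyme, had 7.34 (Control 1) and 8.17 FPKM (Control 2) against 3.32 (Cu 1) and 5.04 FPKM (Cu 3), or -0.78 on the log2 scale with limma's adjusted p at 0.710. UGP2 alone, among the 8 pathway lists and the 9 members, reached an unadjusted p of 0.05 with limma. Over all tested genes 7.01% did, so this count does not set the lists apart. Among 9 tested genes of the hexosamine and polyol branches the median was -0.32, with 3 separated downward, among them AKR1B1, the aldose reductase, and GFPT1, the entry enzyme of hexosamine synthesis, at -0.77 and -0.46, and with OGA, which removes the sugar mark that hexosamine synthesis feeds, upward at 0.43. Of 7 tested genes of other NADPH sources, with a median of -0.02, ME1 was separated upward at 0.48 and IDH1 and MTHFD2 downward at -0.68 and -0.56. Of the 2 other transporters tested none was separated, and of 3 regulators HIF1A was separated downward at -0.45. None of these reached an adjusted p of 0.05 with limma, the smallest being 0.682.

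For each group the deposited table also holds a mean FPKM made by the authors, which by its decimals averages 3 libraries. By these means 6 of the 9 genes were higher and 3 lower in Cu. Set against the mean FPKM of the 4 libraries, the direction differed for 1 of the 9, LDHB, with authors' means of 136 FPKM in Control and 114 FPKM in Cu. For PGD the mean FPKM was higher in Cu both in the authors' means and in the 4 libraries, whereas the difference of mean log2 values was -0.07. For GPI the authors' means were 4.03 and 7.58 FPKM and for GAPDH 8.16 and 9.58 FPKM, Control first. They carry no SD or number of replicates here.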

How the data were processed

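Per the study's methods, libraries of 3 oocytes were amplified with oligo dT priming (Smart-seq2 per the labels), and the authors filtered reads with SOAPnuke, mapped them with HISAT2 and Bowtie2 and calculated expression with RSEM. The submitters' processing notes instead list TopHat2 2.0.13, Cufflinks 2.2.1, Cuffnorm and Cuffdiff, with the build Sscrofa11.1 (susScr11). Which of them made the deposited FPKM values cannot be told apart here, and the use of strand is not given in the sources used here. The authors deposited FPKM rounded to 2 decimals for 16050 of 30684 rows, all of type mRNA, with group means. Depth is unknown. Coordinates come from RefSeq's Sscrofa11.1 table, to which all 16050 identifiers matched.

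From these, log2(FPKM + 1) was fitted with limma 3.58.1 in R 4.3.3 (eBayes with a variance trend) for the 8541 genes that 2 or more libraries placed at 1 FPKM or higher, with Benjamini-Hochberg adjustment over all of them. The script was tested on simulated data. Shares within a step were compared with two-sided exact permutation tests. The genes and lists were chosen with earlier results of these data known. Named genes are the 9 members, partner isozymes at 1 FPKM in 2 libraries, and up to 2 separated genes per list and direction. Others are marked or serve to complete a step, and some genes of the steps are not reported here. Alternatives were another pseudocount, other filters and scalings, GAPDH scaling, no variance trend, other isozyme sets, the authors' means and leaving out each library.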

Additional observations from a re-analysis of the deposited data

How the results depend on the processing

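No paired analysis was possible because the groups share only replicate number 1. With the alternatives that kept all 4 libraries, GAPDH scaling included, 0 members reached an adjusted p of 0.05 with limma. GAPDH scaling could hardly have given a call, since GAPDH itself differed 5.06-fold between the Cu libraries. With it 54 of the 8541 tested genes reached an unadjusted p of 0.05 with limma, against 599 in the main fit. Leaving out single libraries gave 0 to 3 such members (GPI, GAPDH and PKM without Cu 3) and 0 to 1755 such genes in all, with 186 without Cu 1 and 1755 without Cu 3, where the lone Cu library was assumed to vary like the others. Members at an unadjusted p of 0.05 with limma numbered 1 (HK1) without the filter, where 826 of all 15559 genes reached it. Genes past both 0.05 (unadjusted p) and 1.5 (log2 fold change) upward were 150, with 246 for a pseudocount of 0.1 and 77 to 741 with a library left out. Lower ones were 10, with 24 for that pseudocount, 20 for quantile, median-of-ratios and upper-quartile normalization each, and 11 to 41 with a library left out. The median of all genes, 0.16, was -0.05 after quantile normalization and 0.01 after either scaling. In the same order of these 3 normalizations, GAPDH reversed to -0.07, -0.02 and -0.02, LDHB to -0.07, -0.10 and -0.10, and PFKP reversed with quantile normalization to -0.01. LDHB was -0.03 with GAPDH scaling. With each library left out, the log2 fold changes ran from -0.51 to 0.25 for SLC2A1, -0.21 to 0.73 for PFKP, -0.88 to 1.18 for GAPDH, -1.14 to 0.09 for LDHA, -0.08 to 0.24 for LDHB and -0.70 to 0.56 for PGD, each including a reversal, and 0.44 to 1.78 for GPI and 0.05 to 1.22 for PKM. Medians of the lists moved as follows. The hexosamine list, -0.32, was -0.48, -0.49 and -0.50 under the 3 normalizations, and the NADPH list, -0.02, was -0.25, -0.16 and -0.16, and -0.27 to 0.22 with a library left out. The regulator list, -0.10, was -0.45 with 1 FPKM in every library, which left 1 gene. The glycogen list, -0.38, was 0.07 without the filter, 0.08 with 1 FPKM in every library and -0.67 to -0.16 with a library left out. The list of lactate and pyruvate handling, -0.06, was -0.20 to 0.36 with a library left out. The cause of these changes was not tested.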
